A study of Danio rerio with 14 samples.

Results

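The comparison set subjective night against subjective day in the pineal gland of zebrafish kept in constant darkness (DD). It rests on 7 of the 14 arrays of the study: 3 of subjective night, at zeitgeber time (ZT) 14, 18 and 22, and 4 of subjective day, at ZT2, ZT6 and ZT10 and from a further collection named ZT2b, whose difference from ZT2 the labels do not explain. ZT is the hour after lights on in the cycle the fish had lived in. All groups were adult fish of 3 to 6 months, males and females, of the line Tg(aanat2:EGFP)Y8, in which a transgene of the melatonin gene aanat2 makes the gland fluoresce, so that it could be dissected. They were raised under 12 h of light and 12 h of darkness at 28 °C. For the cycle of collection, sampled every 4 h, they either stayed under that light-dark cycle (LD, the other 7 arrays, at the same times) or were held in darkness. Each array carried RNA from 1 pool of 12 glands, amplified about 1800-fold, so a time was represented by 1 pool per light condition apart from ZT2 with ZT2b. The p-values below therefore measure the spread among pools taken at different hours of a day or a night, and nothing in the labels says whether the pools came from separate days. A signal is the MAS5 intensity of a probe set. Differences are night minus day on the scale log2(signal + 14.9) with their standard error (SE). The added constant is the 25th percentile of the table's signals.

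The fish pineal gland is itself a photoreceptive clock: its photoreceptor cells sense light, keep circadian time and make melatonin at night. The clock is a feedback loop in which CLOCK and BMAL proteins activate genes through E-box sites, and the period, cryptochrome and BHLHE40/41 repressors that result shut this activation off again. In darkness the loop runs on without a light cue.

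The DD array of ZT10, a day array, stood apart from the others. Its poly-A spikes, bacterial transcripts added before labelling, had a geometric mean of 1620 against 90 to 237 on the other 13 arrays, and its ratio of 3′ to 5′ GAPDH signal, a measure of RNA integrity and of the reach of the amplification, was 16.7 against 5.09 to 12.9. The same ratio of the array's control for acta1, an actin gene of muscle, was 19.6 on it and ran from 0.354 to 78.3 over all 14 arrays. With that spread it cannot set any array apart. Its mean correlation with the other DD arrays was 0.938, where those of the other 6 lay between 0.963 and 0.965. Of the 9300 probe sets tested, 2879 had their highest and 2630 their lowest DD value on this array. Values without it are given beside many of the results it bears on, but not all. They are not given for rorab, oaz2b, ddc and cry2, for example, where ZT10 was the highest or lowest of the day arrays. Among the other 6 DD arrays the poly-A spike signal itself did not overlap between groups, with 193 to 221 on the night arrays and 90 to 150 on the day arrays, and its part in the values without ZT10 was not tested. The median signal of the DD arrays was 43.7 to 50.6. The gland's photopigment gene exorh (exo-rhodopsin) was bright on all 7 arrays, from 9419 to 14442, with a difference between night and day of 0.04 ± 0.17. The homeobox genes crx and otx5, which maintain the photoreceptor fate of pineal cells, were also measured on every array, with −0.19 ± 0.27 and 0.15 ± 0.19.

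No probe set passed the test of subjective night against day. With limma, 0 of 9300 (0.0%) had an adjusted p under 0.05, and the smallest adjusted p was 0.349. At an unadjusted p under 0.05 there were 448 (4.82%), 198 higher and 250 lower at night, where 465 would be at that level with no difference anywhere. With the ZT10 array left out, 1 probe set was called, that of guca1c. With arrays weighted by how well they matched the fitted groups, which gave ZT10 a weight of 0.213 and the others 0.973 to 1.593, 22 were called, 20 of them lower at night. The genes below are therefore given by their values. Those named first have the largest differences among genes whose night and day values do not overlap. Of all tested probe sets, 290 (3.12%) were higher on every night array than on any day array, and 315 (3.39%) were lower on every night array. With a difference of at least 1 on the log2 scale as well, there were 9 (0.0968%) higher and 24 (0.258%) lower.

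Among these, the genes lower at night had the larger differences, and several belong to the clock or to photoreceptors. The largest was bhlhe40, a basic helix-loop-helix repressor that binds E-boxes. Its signal was 2099 at ZT2, 2456 at ZT2b, 2062 at ZT6 and 1892 at ZT10, and 185 at ZT14, 169 at ZT18 and 896.5 at ZT22. All day pools lay within a narrow band, ZT14 and ZT18 were far below it, and ZT22 was part of the way back. The difference was −2.72 ± 0.47 (adjusted p = 0.349). Without the ZT22 array it was −3.47 ± 0.20 and was called (adjusted p = 3.69e-04), the lowest adjusted p of this gene over all alternatives.

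guca1c encodes a guanylate cyclase activating protein, which couples falling calcium to the recovery of photoreceptors after light. It had 266, 195, 204 and 96.1 at ZT2, ZT2b, ZT6 and ZT10, and 23.3, 25.7 and 52.3 at ZT14, ZT18 and ZT22. The lowest day value was that of ZT10, and the groups did not overlap. The difference was −2.05 ± 0.32 (adjusted p = 0.349) with all 7 arrays and −2.32 ± 0.23 (adjusted p = 0.0258) without ZT10, the only call made with that array left out. Over all alternatives its adjusted p was 0.00436 or higher.

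A group of other genes had the same course, high at ZT2 and ZT2b, lower through ZT6 and ZT10 and lowest at ZT14. zgc:162144, a gene known here by its clone name only, had 850.5, 696, 323 and 127 by day in the order ZT2, ZT2b, ZT6 and ZT10, and 50.8, 72.2 and 106 by night in the order ZT14, ZT18 and ZT22, a difference of −2.23 ± 0.53. osbpl7, of the oxysterol-binding protein family that carries lipids between membranes, had 298, 213, 186 and 116 by day and 32.7, 43.7 and 79.3 by night (−1.70 ± 0.31). sh3gl2a, an endophilin of synaptic vesicle recycling, had 1257, 1048, 725 and 473 by day and 216, 250 and 349 by night (−1.57 ± 0.32). In each of the 3 genes ZT10 was the lowest of the day arrays and ZT22 the highest of the night arrays.

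The remaining genes of the 12 with the largest differences lower at night differed by 1.11 to 1.62 log2 units. oaz2b, an antizyme that limits polyamine synthesis, had 314, 194, 192 and 373 by day and 97.4, 58.0 and 69.2 by night (−1.62 ± 0.26), and its other probe set was lower at night too. rbp3, the retinoid-binding protein of the space around photoreceptors, had 3085, 2098, 2889 and 1764 by day and 1334, 995 and 847 by night (−1.19 ± 0.24). pde6hb, an inhibitory subunit of the photoreceptor phosphodiesterase, had 2505, 1956, 2391 and 2235 by day and 1534, 678 and 969 by night (−1.16 ± 0.25). None of the 3 had a night value as high as its lowest day value, and in rbp3 the ZT10 and ZT14 values were close.

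hspa4l, an exchange factor of the HSP70 chaperones, had 1825, 1977, 1629 and 1441 by day and 657, 726 and 980 by night (−1.12 ± 0.20). Its day values were closer to each other than those of most genes above, and night and day explained 88.1% of its variation over the 7 arrays. mthfd2, a mitochondrial enzyme of folate metabolism, differed by −1.11 ± 0.23, and the nuclear receptor gene rorab by −1.15 ± 0.29. ankha, a pyrophosphate transporter gene, had 27.2 to 64.6 by day and 8.4 to 10.8 by night. All its night values lay below the constant of 14.9, so the size of its difference depends on that constant, from −0.66 with 50 to −1.72 with 5. The adjusted p of these 12 genes was 0.349 to 0.519, and the 12 differences kept their sign under all alternatives tried. Since the genes were chosen for groups without overlap, only a rescaling of the arrays could have changed a sign.

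**Figure D1:**
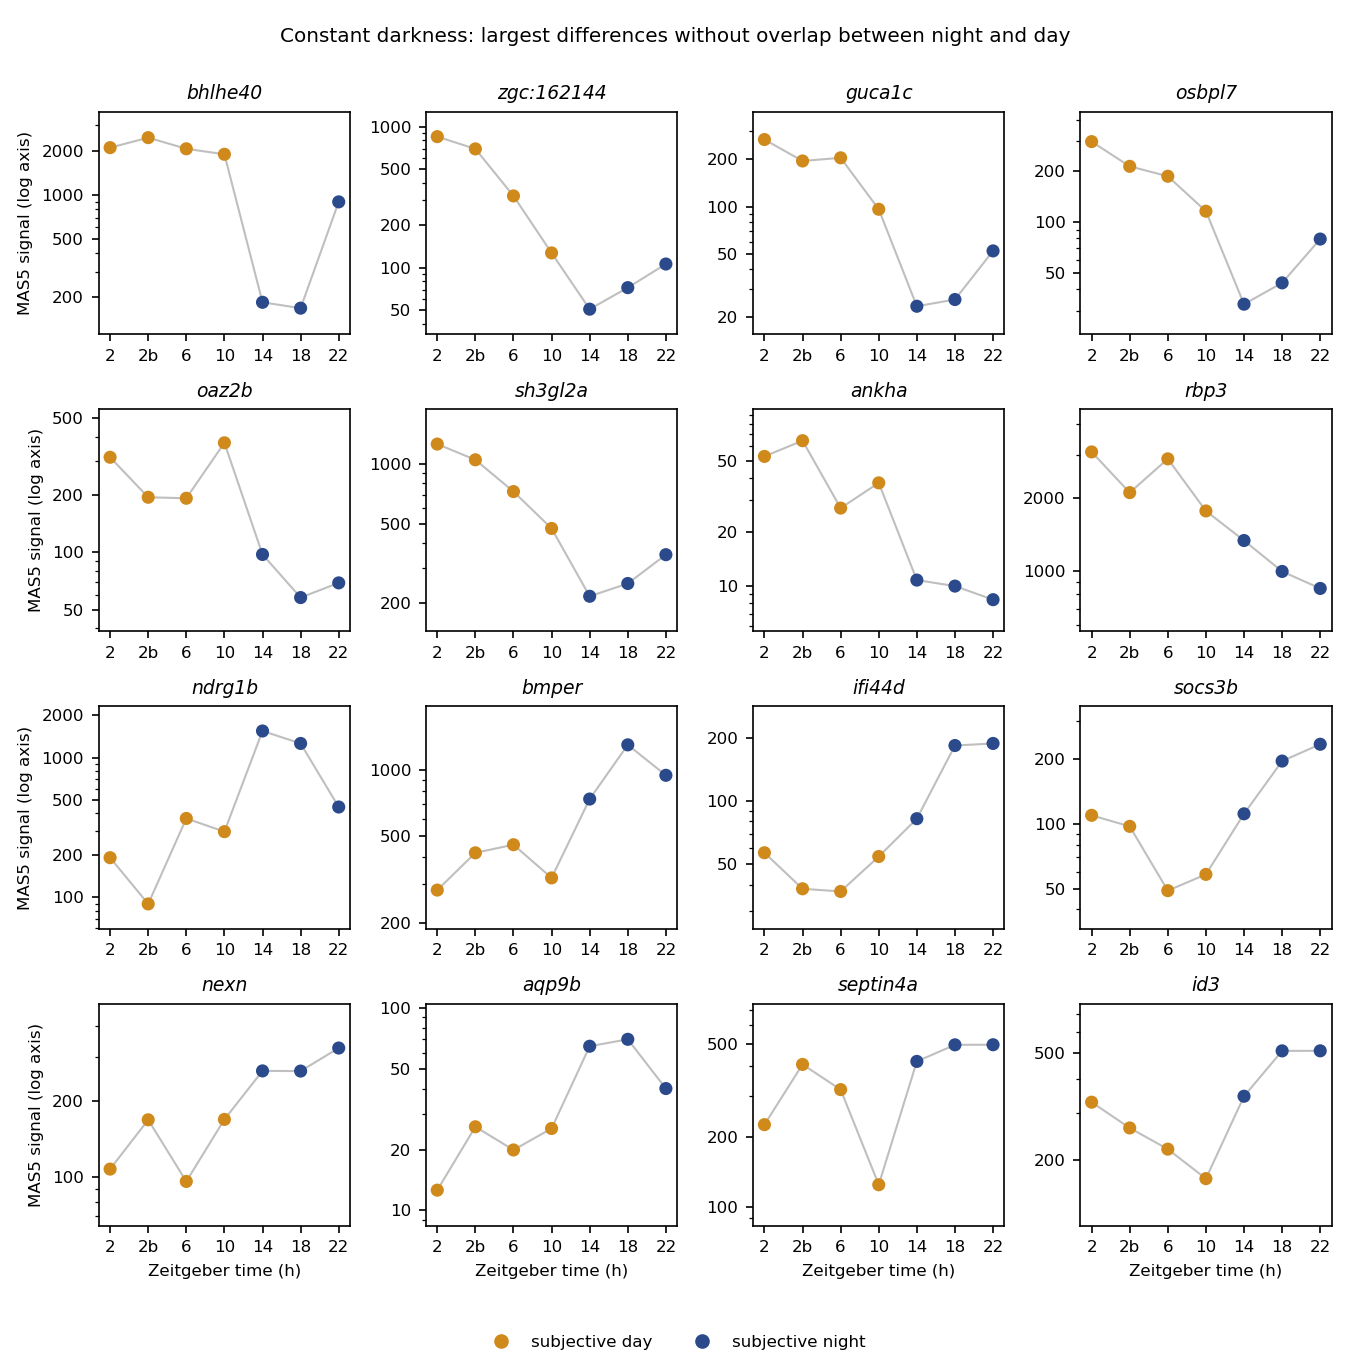
MAS5 signal (log axis) on each of the 7 DD arrays, by collection, for the 8 genes lower and the 8 genes higher at subjective night with the largest differences among genes without overlap. Day arrays are orange, night arrays blue, and each point is 1 pool of 12 glands. In the upper 2 rows of panels all blue points lie below all orange ones, with bhlhe40 between 1892 and 2456 by day and 169 to 896.5 by night, and in the lower 2 rows all lie above.

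The 24 probe sets lower at night by at least 1 stand for 18 named genes and 6 probe sets without a name. Of the 24, 13 had their highest value at ZT2 and 8 at ZT2b, and 13 had their lowest at ZT14, 7 at ZT18 and 4 at ZT22. The LD arrays, which played no part in choosing them, gave the same direction in 23 of 24 (95.8%), against 57.6% of all tested probe sets. Their median difference was −1.18 in DD and −1.24 in LD. In LD 5 of them had groups without overlap in the same direction (5.82% of all tested probe sets), which are rbp3, pde6hb, rorab, the condensin gene smc4 and an unnamed probe set. In the LD test, rbp3 (−1.94 ± 0.30, adjusted p = 0.0316) and rorab (−1.999 ± 0.176, adjusted p = 0.00426) were called. The gene with the opposite direction in LD was nr2e3, described with the photoreceptor genes.

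Of the genes higher at night, ndrg1b had the largest difference. It is a member of the NDRG family, which responds to stress and to differentiation signals. It had 193 at ZT2, 89.9 at ZT2b, 367 at ZT6 and 295 at ZT10, and 1550 at ZT14, 1262 at ZT18 and 443 at ZT22. ZT14 and ZT18 stood well above the day, while ZT22 was close to the highest day value at ZT6. The difference was 2.11 ± 0.49 (adjusted p = 0.389), and its adjusted p over the alternatives was 0.0646 or higher.

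bmper, a secreted modulator of bone morphogenetic protein signals, had 282, 418, 455 and 321 at ZT2, ZT2b, ZT6 and ZT10 and 737, 1304 and 946 at ZT14, ZT18 and ZT22. All 3 night pools were clearly above all 4 day pools, by 1.38 ± 0.24 (adjusted p = 0.349). With array weights it was called (1.36 ± 0.23, adjusted p = 0.0465), as was zgc:158423 (0.92 ± 0.16, adjusted p = 0.0465), which had 179 to 274 by day and 355 to 445 by night. These were the 2 calls higher at night in that setting, against 20 lower. The lower ones included guca1c, zgc:162144, osbpl7, hspa4l, sh3gl2a, bhlhe40, oaz2b, rbp3 and mthfd2. Also among them were cry2, nr2e3, hspa8b, smc4 and rcvrn3. The adjusted p of these named lower genes was 0.00436 to 0.0465 with array weights. aqp9b, a channel for water and glycerol, had 12.6 to 25.9 by day and 64.7, 70 and 40 by night (1.02 ± 0.24). id3, an inhibitor of basic helix-loop-helix factors, had 170 to 328 by day and 346 to 510 by night (0.87 ± 0.25), and its highest day value, at ZT2, lay just under its ZT14 value.

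Other genes in this direction are linked with immune signals or with muscle and the cytoskeleton. ifi44d, of a family induced by interferon, had 56.8, 38.3, 37.2 and 54.5 by day and 82.4, 183 and 188 by night (1.37 ± 0.27). The interferon-induced genes irf7 (0.76 ± 0.63), isg15 (0.23 ± 0.67) and ifi27.2 (−0.36 ± 0.67), described under other observations, overlapped between night and day. socs3b, a feedback inhibitor of cytokine signalling, had 48.9 to 110 by day and 111, 196 and 234 by night (1.06 ± 0.30), so that its ZT2 and ZT14 values nearly met. samsn1a, an adaptor gene of blood cells, differed by 0.85 ± 0.27. Beside these genes, all 13 tested leukocyte markers had a positive difference, described with the other cell types below, and the part of leukocytes in these values was not tested. The actin-binding gene nexn had 96.3 to 170 by day and 264, 264 and 326 by night (1.02 ± 0.23). The mitochondrial creatine kinase gene ckmt2a differed by 0.84 ± 0.35 with all arrays and by 0.49 ± 0.19 without ZT10, where its signal was 243 against 650.3 to 671 on the other day arrays. For septin4a, a cytoskeletal GTPase gene, the values were 0.88 ± 0.33 and 0.58 ± 0.21, and for the ubiquitin ligase gene lnx2b 0.85 ± 0.29 and 0.84 ± 0.31. The adjusted p of the 12 genes higher at night was 0.349 to 0.984.

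Of the 9 probe sets higher at night by at least 1, the LD arrays gave the same direction in 6 (66.7%), with medians of 1.06 in DD and 0.43 in LD. Those with the opposite direction in LD were ifi44d (−0.20 ± 0.37), socs3b (−0.12 ± 0.28) and an unnamed probe set. aqp9b (1.24 ± 0.28) was the 1 whose LD groups did not overlap (6.53% of all tested probe sets were higher without overlap in LD). The LD night arrays helped aqp9b into the test, so its LD difference is not independent of that choice. The agreement in direction was lower than that of the 24 probe sets lower at night, and the difference between the 2 shares was not tested.

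Melatonin synthesis runs from tryptophan through tryptophan hydroxylase (tph1a, tph2), a decarboxylase (ddc), the N-acetyltransferase Aanat2 and a methyltransferase, and its nightly rate is set by Aanat2. In DD aanat2 had 2906 at ZT2, 7488 at ZT2b, 2179 at ZT6 and 1017 at ZT10, and 6588 at ZT14, 9780 at ZT18 and 10143 at ZT22. The 3 night pools and ZT2b were high and the other day pools low, so the groups overlapped through ZT2b only. The difference was 1.71 ± 0.52 (adjusted p = 0.762). Without ZT2b it was 2.21 ± 0.35 with no overlap (adjusted p = 0.621), and without ZT10, the lowest value, 1.26 ± 0.38 (adjusted p = 0.378). In LD the difference was 1.52 ± 0.23 and was called (adjusted p = 0.0296), and that between DD and LD was 0.19 ± 0.61 (adjusted p = 0.986).

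tph1a had 4650.3, 3680 and 4735 at ZT2, ZT2b and ZT6 and 1732 at ZT10, against 5806, 6128 and 4859 at night. Its groups did not overlap, with ZT22 close to ZT6, and its second probe set had a positive difference with overlap (0.37 ± 0.23). The difference of 0.69 ± 0.31 (adjusted p = 0.984) became 0.36 ± 0.14 without ZT10. ddc was lower on all night arrays, with 4130 to 5461 by day and 3082 to 3961 by night (−0.37 ± 0.16, and −0.54 ± 0.23 with overlap in its second probe set), and tph2 (−0.24 ± 0.15) and the methyltransferase-like gene asmtl (0.04 ± 0.21) overlapped. Of the 5 tested members, 3 were higher and 2 lower at night, with a median of 0.04 against 0.04 for all 6117 tested genes, and 0 were called in DD.

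The array's EGFP control probe set, which lay outside the fit, may give a second reading of aanat2 regulation through the transgene. Whether this probe set measures the transgene was not tested. It had 13.8 at ZT2, 23.9 at ZT2b, 42.8 at ZT6 and 15 at ZT10, and 47.9, 48.0 and 62.8 at ZT14, ZT18 and ZT22. Every night pool was above every day pool, and ZT2b was low, unlike its aanat2 value. The night signals lay above the median signals of their own arrays, which were 45.7 to 47.1, but by little at ZT14 and ZT18. The difference was 0.86, with a two-sided exact permutation p of 0.0571, the smallest that 3 arrays against 4 allow. In LD it was 0.56 (exact permutation p = 0.2286), and the groups overlapped. The probe set had 36.5 at ZT2 and 39.9 at ZT10 there, against 43.9, 31.8 and 67.1 at ZT14, ZT18 and ZT22.

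Among clock genes, most of the period, cryptochrome and E-box repressors were lower at night. Of 8 tested members 7 had a negative difference, and in 4, bhlhe40, cry1b, cry2 and per2, the groups did not overlap, where 198 of 6117 tested genes (3.24%) were lower without overlap. The median was −0.93 (0.04 for all tested genes), and −0.97 without ZT10, with 5 of 8 not overlapping against 7.23% of genes. The cryptochromes cry2 and cry1b repress CLOCK and BMAL in fish. cry2 had 204, 199, 201 and 151 by day in the order ZT2, ZT2b, ZT6 and ZT10 and 67.9, 87.6 and 112 by night (−0.98 ± 0.20), with its second probe set lower but overlapping (−0.99 ± 0.34). cry1b had 56.4 to 80.0 by day and 26.1 to 39.4 by night (−0.88 ± 0.19). Both had tight groups, and night and day explained 84.9% and 87.2% of their variation.

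per2, a period gene that light induces in fish, had 486, 511, 442 and 618 by day and 315, 331 and 286 by night. Its DD groups did not overlap, with a difference of −0.69 ± 0.18 (adjusted p = 0.551), and −0.60 ± 0.14 without ZT10, while its second probe set overlapped (−0.38 ± 0.24). In LD the same contrast was −3.85 and was called (adjusted p = 0.0246). The light-induced cryptochrome cry1a had −0.45 ± 0.22 in DD, with overlap, and −2.09 in LD (adjusted p = 0.0751).

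Other large swings of clock genes in DD cut across the line between night and day. bhlhe41, the close relative of bhlhe40, had 1020, 2104, 318 and 127 by day and 42.8, 81.8 and 988 by night, and ciarta, a repressor related to mammalian Chrono, had 516, 695, 167 and 56.1 by day and 32.5, 33.2 and 325 by night. Both were high from ZT22 to ZT2b and low from ZT10 to ZT18, so the highest night value exceeded the lowest day value by far. Their differences were −1.67 ± 1.04 and −1.52 ± 0.85, while their ranges over the 7 arrays were 5.20 and 3.90 log2 units. nfil3-5, a repressor that competes at D-box sites, had 61.5, 28.7, 157 and 2513 by day and 2188, 892 and 100.0 by night. It was high on the adjacent ZT10 and ZT14 arrays, with a range of 5.86, of which night and day explained 13.6% (1.65 ± 1.305). cry4, a cryptochrome with little repressor activity in fish, had the same course, with 131 at ZT10, 109 at ZT14 and 7.4 at ZT22 (0.35 ± 0.66, of either sign over the alternatives).

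Of the PAR bZIP and E4BP4 factors, which act on D-boxes, nfil3-6 was lower on all night arrays, with 1804 to 2436 by day and 1360, 1197 and 1036 by night (−0.88 ± 0.18). tefa, an activator of the family, had 762, 882, 569 and 309 by day and 266, 274 and 430 by night (−0.87 ± 0.34), with ZT22 above ZT10, and −1.17 ± 0.22 without ZT10. Its second probe set had −0.11 ± 0.53 with all arrays. That probe set was at 2.6 at ZT10, at 65.0 to 92.8 on the other day arrays and at 35.1 to 52.7 by night. Of the nuclear receptors that act on bmal genes, the activator rorab had 224, 189, 229 and 423 by day and 146, 71.6 and 113 by night, with no overlap. The median of the 3 tested receptors of this list was −1.15, and −0.92 without ZT10. The repressor nr1d2b had 1270.3, 1128, 1166 and 420.1 by day and 142, 286 and 719 by night (−1.51 ± 0.51, and −1.88 ± 0.44 without ZT10). Its groups overlapped through ZT10 and ZT22, and its second, dim probe set had a difference of the other sign. rorcb was at 25.2 to 32.2 at ZT2, ZT2b and ZT6 and at 473.5 at ZT10, against 172, 125 and 25.5 at night. Its difference was 0.36 ± 0.83 with ZT10 and 1.24 ± 0.47 without it, and negative under some alternatives.

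The activator genes themselves crossed the boundary as well. bmal1a had 54.1, 31.0, 114 and 150.3 by day and 179, 114 and 48.9 by night, and bmal1b 24.3 at ZT2, 30.7 at ZT2b, 96.2 at ZT10 and ZT14, 93.7 at ZT18 and 51.8 at ZT22, with ZT6 between ZT2b and ZT10. Both were highest at ZT10 and ZT14 and low at ZT2, ZT2b and ZT22, and bmal1a was about as high at ZT6 as at ZT18. The differences were 0.36 ± 0.46, which was −0.00 in 1 alternative, and 0.54 ± 0.36, and clocka, at 7.1 to 50.8, had 0.06 ± 0.38. Over all 6117 genes, 151 had a range above 2 log2 units in DD, and of these 13 had night and day values without overlap while 138 overlapped. Of all 6117, 213 (3.48%) were higher and 198 (3.24%) lower at night without overlap, so most genes overlapped whatever their range.

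**Figure D2:**
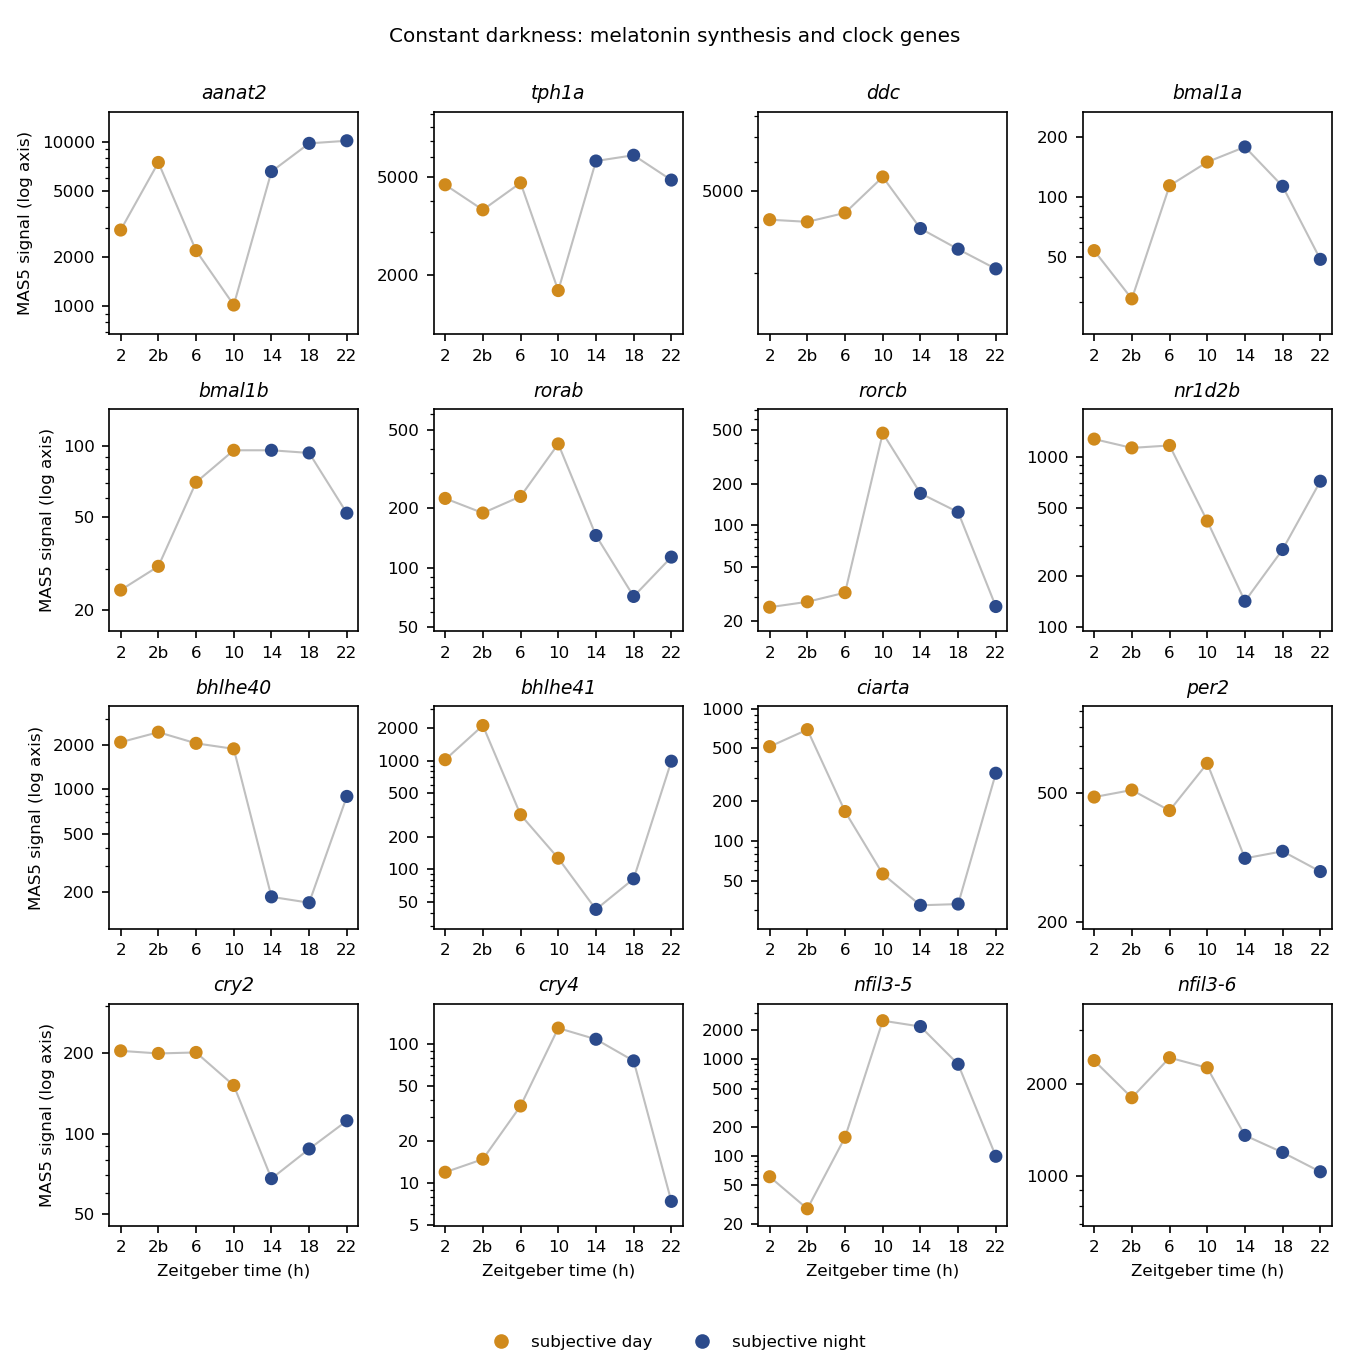
MAS5 signal (log axis) on each DD array, by collection, for 3 genes of melatonin synthesis and 13 clock genes. Day arrays are orange and night arrays blue, and each point is 1 pool. bhlhe40, cry2, per2, rorab and nfil3-6 separate night from day, whereas bhlhe41, ciarta, nfil3-5, cry4 and the bmal genes turn within the day or within the night, such as nfil3-5 with 2513 at ZT10 and 2188 at ZT14.

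Phototransduction genes did not shift as a list. Of 24 tested, 13 were higher and 11 lower at night with a median of 0.05, and 0.04 without ZT10. In 5 the groups did not overlap with lower values at night (3.24% of all genes) and in 1 with higher values (3.48%). Without ZT10 there were 5 lower (7.23% of all genes) and 5 higher (6.78%). With all arrays the lower ones were guca1c, pde6hb, the recoverin gene rcvrn3 (−0.82 ± 0.19), the channel gene cnga1a (−0.46 ± 0.23) and the cone phosphodiesterase gene pde6c (−0.40 ± 0.14). rcvrn3, whose calcium-binding protein slows the shut-off of photopigment, had 1181 to 1692 by day and 692 to 884 by night. The higher one with all arrays was gngt2a, a cone transducin γ subunit, with 594 to 773 by day and 870 to 1133 by night (0.59 ± 0.19). Its relative gngt2b had 36.1, 47.2, 93.0 and 168 by day and 203, 229 and 105 by night (1.06 ± 0.42), with overlap between ZT10 and ZT22, and 1.41 ± 0.33 without ZT10. opn1sw2, a blue cone opsin gene, had 0.15 ± 0.51 in DD, while its LD difference of 1.79 was called (adjusted p = 0.0445).

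In the retinoid cycle, which regenerates the pigment's chromophore, 11 of 16 tested genes were lower at night (median −0.13), as were 2698 of all 6117 tested genes. Of the 16, rbp3 had groups without overlap, a share near the 3.24% of all genes. The β-carotene cleaving gene bco2a (−0.91 ± 0.39) and the retinol uptake receptor gene stra6 (−0.44 ± 0.22) overlapped, and stra6 was at 5292 at ZT10 against 2400 to 3339 elsewhere. The isomerase gene rpe65a had 4355 to 6859 by day, 3703 and 3737 at ZT14 and ZT18, and 8723 at ZT22.

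Of 13 pineal and photoreceptor transcription factors, 1 had groups without overlap, lower at night, as did 3.24% of all genes. nr2e3, a nuclear receptor that represses cone genes in vertebrate rods, had 1148, 1661, 1053 and 873 by day and 486, 534 and 585 by night (−1.09 ± 0.23, adjusted p = 0.353). The night values were alike and lay well below the day. In LD the contrast was 0.80 ± 0.44, where ZT22 had the highest signal of all 14 arrays (2593). The difference between DD and LD was −1.89 ± 0.43 (adjusted p = 0.305). The other 12 factors, among them neurod1, otx2b and isl1a, overlapped, with differences of −0.24 to 0.22.

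Chaperone genes leaned towards the day, but not on every day array. Of 61 tested, 37 were lower at night, and 44 without ZT10, with medians of −0.12 and −0.19. The list's median deviation from each gene's mean was 0.22, −0.03, 0.21 and −0.21 at ZT2, ZT2b, ZT6 and ZT10. By night it was −0.13, −0.01 and 0.01 at ZT14, ZT18 and ZT22. ZT2 and ZT6 thus lay above the night arrays, ZT2b within their range and ZT10 below them. Without overlap were 5 with lower and 3 with higher values at night (3.24% and 3.48% of all genes), and without ZT10, 14 and 4, where all tested genes had 442 (7.23%) and 415 (6.78%). After hspa4l, the lower ones were hspa8b, a constitutive HSP70 gene with 197 to 375 by day and 90.4, 139 and 171 by night (−1.05 ± 0.26), the inducible hsp70.3 (−0.90 ± 0.31), hsp90aa1.2 (−0.88 ± 0.25) and the HSP70 cofactor gene hspbp1 (−0.49 ± 0.18). hsp90aa1.2 had 4164 to 8820.5 by day and 2821 to 4027 by night, and its highest night value was close to its lowest day value at ZT2b, while its second probe set overlapped (−0.88 ± 0.70). Of the higher ones, cirbpb, an RNA-binding protein gene of the cold-inducible family, had 1156 to 1356 by day and 2378, 1749 and 1561 by night (0.59 ± 0.19). The small heat shock gene hspb1 had 0.53 ± 0.26, with 236 at ZT10 and 396 to 417 at ZT2, ZT2b, ZT6 and ZT14.

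Genes of DNA repair, antioxidant defence, sterol synthesis and immediate early responses had small or mixed differences. Of 29 genes of photolyases, DNA repair and damage response, 12 were higher and 17 lower (median −0.02). Without overlap were 1 higher and 1 lower gene, near the shares of all genes (3.48% and 3.24%). These were mdm2, the p53 ligase gene, with 48.8 to 65.0 by day and 73.2 to 91.7 by night (0.47 ± 0.17), and cry5, a photolyase gene, whose night signals of 5.6 to 9.5 lay below the constant (−0.63 ± 0.29, with a second probe set of the other sign). cry-dash, a photolyase relative, had 25.1 to 63.2 by day and 14.3, 11 and 34.1 by night (−0.76 ± 0.30), and the stress gene gadd45ga 390 to 692 by day and 1083, 899 and 650 by night (0.64 ± 0.25). Both overlapped at ZT22.

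Of 28 antioxidant and detoxification genes 19 were higher at night with all arrays (median 0.17) and 13 without ZT10 (−0.01). nqo1, a quinone reductase gene, had 37.7 to 80.6 by day and 98.7 to 121 by night (0.72 ± 0.23, and 0.55 ± 0.17 without ZT10). Of 34 immediate early and cAMP-responsive genes, the phosphatase genes dusp6 (0.43 ± 0.17) and dusp5 (−0.39 ± 0.17) did not overlap, again near the shares of all genes (3.48% higher and 3.24% lower). The median was 0.06, and −0.08 without ZT10. Of 10 sterol genes 0 lacked overlap, the median was −0.03, and the sterol sensor gene insig1 had 143 to 193 by day and 168, 234 and 264 by night (0.36 ± 0.20). Of 17 cell cycle genes 0 lacked overlap either (median −0.02).

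Large lists of housekeeping genes moved with the ZT10 array. The ribosomal proteins were the exception in part: 69 of 72 had a positive difference, with a median of 0.24 against 0.04 for all genes, and 67 of 72 and a median of 0.14 against 0.01 without ZT10. Without overlap and higher at night were 17 of 72 with all arrays (3.48% of all genes) and 17 of 72 without ZT10 (6.78%). This count was 38 without ZT6 and 35 without ZT22, where 429 and 503 of all 6117 genes were higher without overlap. It was 11 with median centring and 10 with quantile normalisation, where 170 and 188 of all genes were. Among the 17 with all arrays was rpl29, with 1321 to 2283 by day and 2635 to 2825 by night (0.51 ± 0.21, and 0.34 ± 0.12 without ZT10). Their median deviation from each gene's mean was −0.04, −0.07, 0.10 and −0.39 at ZT2, ZT2b, ZT6 and ZT10, and 0.14, 0.21 and 0.08 at ZT14, ZT18 and ZT22. ZT6 was thus within the range of the night arrays and ZT10 far below all others. In LD the list's median was 0.21, with 35 of 72 not overlapping and higher at night, against 6.87% of all genes. No member was called in either condition.

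Of 75 genes of the mitochondrial respiratory chain, 63 had a positive difference with all arrays and 16 without ZT10, and the median went from 0.11 to −0.05. For the proteasome these were 42 and 24 of 48, with medians of 0.17 and −0.00. On the ZT10 array the median deviations were −0.53 and −0.52, against −0.14 to 0.26 on all other DD arrays for both lists. No direction is given for these lists, since their sign without ZT10 was not the sign with it. Within them, ndufb10, a subunit of complex I, had 215 at ZT10 and 713 to 826 elsewhere, and psme1, a proteasome activator subunit induced by interferon, had 108 to 178 by day and 152, 294 and 248 by night (0.69 ± 0.24, and 0.65 ± 0.25 without ZT10).

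**Figure D3:**
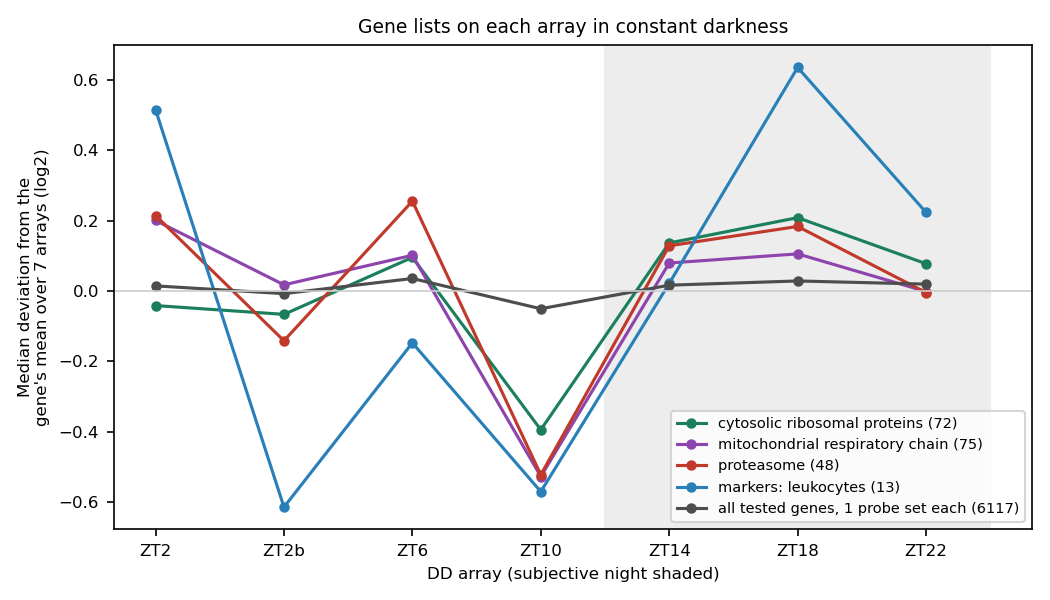
Median, over the members of a list, of the deviation of each gene from its own mean over the 7 DD arrays (log2), by array, with subjective night shaded. The number of tested genes is in brackets. ZT10 is lowest for ribosomal proteins (−0.39), the respiratory chain (−0.53) and the proteasome (−0.52), and the leukocyte markers are lowest at ZT2b (−0.61) and ZT10 (−0.57) and highest at ZT18 (0.64).

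Markers of other cells that a dissected gland can hold were examined beside these lists. In pooled tissue, fewer cells of a type and less RNA per cell cannot be told apart. All 13 tested leukocyte markers had a positive difference, with a median of 0.46, and 12 of 13 and 0.37 without ZT10, while the LD median was −0.02. Their summed signal was 4044 to 8001 by day and 6634 to 9825 by night, so the groups overlapped, and none of the 13 was at 0. ctss2.1, a cathepsin gene of macrophages, had 246, 130, 204 and 83.7 by day and 244, 494 and 263 by night (0.97 ± 0.35). The antigen presentation gene cd74b had 1505, 687, 1113 and 329 by day and 1236, 2014 and 1444 by night (0.95 ± 0.43). In both, ZT2 lay within the range of the night arrays and below ZT18. With all arrays 1 of the 13 had groups without overlap (3.48% of all genes were higher without overlap), the lysozyme gene lyz, with 40.7 to 102 by day and 114 to 180 by night (0.79 ± 0.26). Without ZT2 there were 7 of 13, where 370 of all 6117 tested genes were higher without overlap. With ZT2 and ZT2b averaged there were 6. The count over all genes in that setting is not given here, so the 6 cannot be judged against it. Both settings have fewer day values, which makes overlap less likely by construction.

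The keratin genes of skin varied over a wide range with no line between night and day. krt5 had 2562 at ZT2, 106 at ZT2b, 914 at ZT6 and 263 at ZT10, and 205, 805.5 and 240 at night (−0.57 ± 0.89). Skin markers had a median of 0.15, and −0.04 without ZT10, with sums of 2760 to 8108 by day and 3697 to 7744 by night. Red blood cell markers (median 0.17 over 9 genes, and −0.13 without ZT2) were lowest at ZT2, where the globin gene hbba2 had 479 against 1233 to 2565 elsewhere. Muscle markers, given here because of nexn and ckmt2a, had sums of 345 to 460 by day and 356 to 519 by night. The medians were −0.06 over 11 glial, −0.06 over 4 myelin and −0.17 over 10 neuronal markers, with no member of the 3 lists free of overlap. Of 12 markers of connective tissue, ptgdsb.2, a prostaglandin D synthase gene of meninges, was lower on all night arrays, with 92.9 to 279 by day and 50.4 to 90.6 by night (−0.93 ± 0.32), and the collagen gene col12a1b was higher on all of them. Of 3 markers of the neighbouring habenula, kctd12.2 was higher on all night arrays, with 58.3 to 69.5 by day and 74.7 to 107 by night (0.51 ± 0.18), while its dimmer probe set overlapped (0.09 ± 0.23). Among all tested genes, 3.24% were lower and 3.48% higher at night without overlap.

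**Figure D4:**
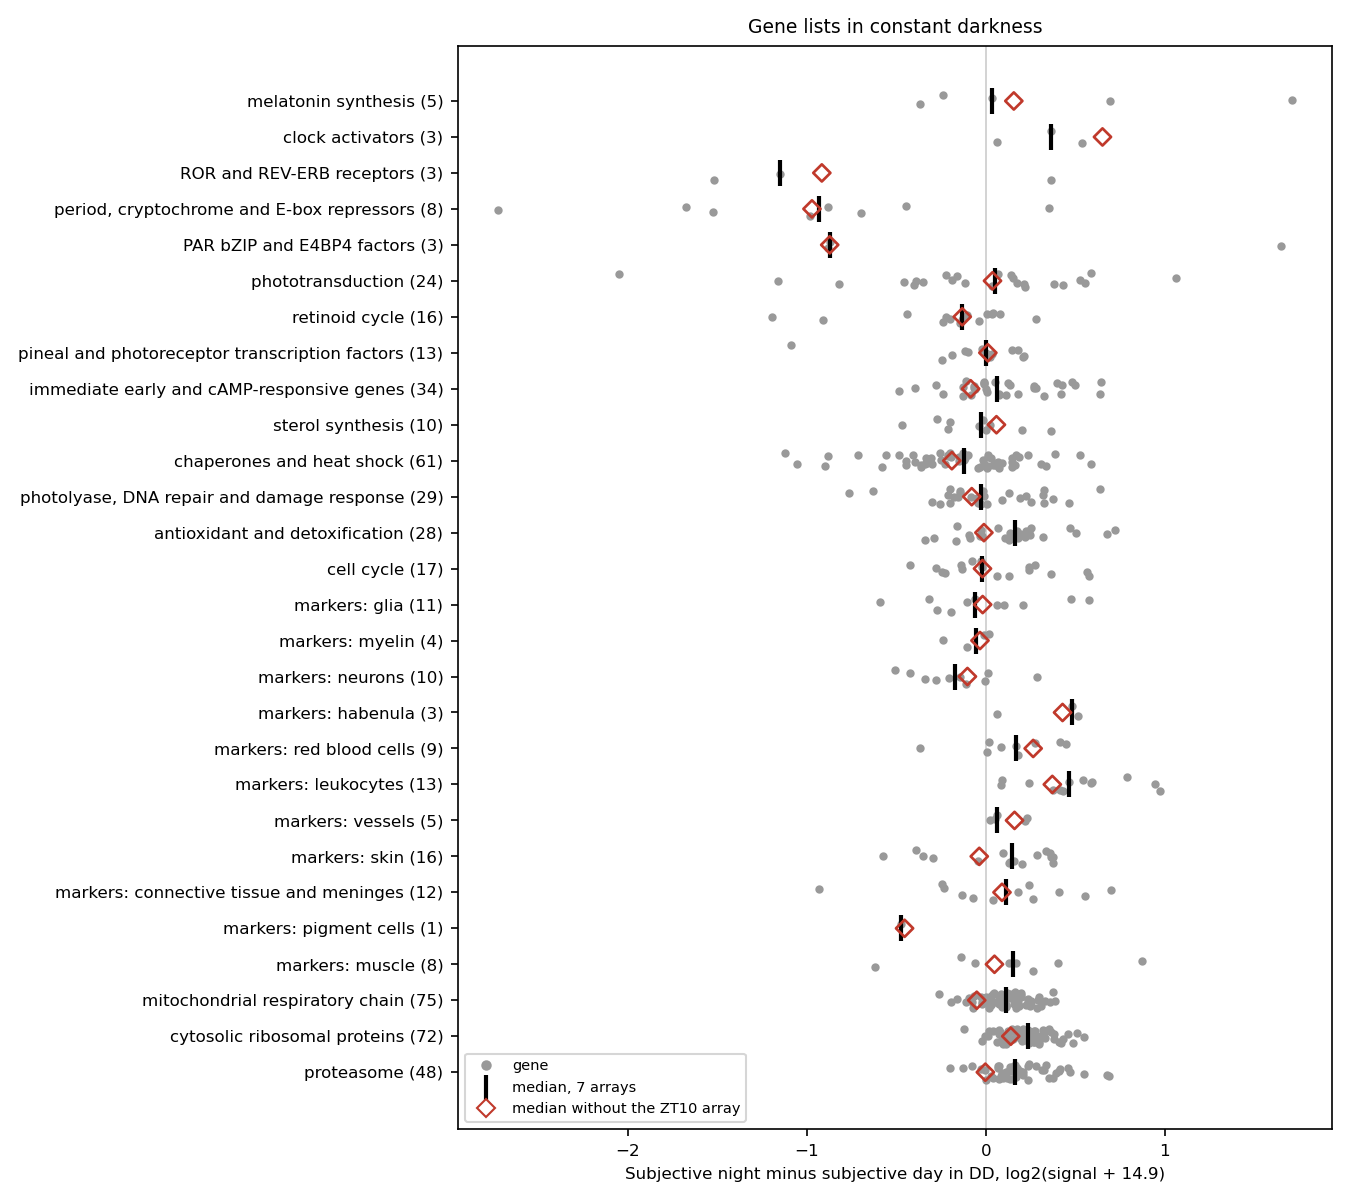
Difference between subjective night and day in DD, on the scale log2(signal + 14.9), for each tested gene (grey points) of 28 gene lists, with the list's median over all 7 arrays (black bar) and without the ZT10 array (red diamond). Numbers of tested genes are in brackets. The repressors sit at medians of −0.93 and −0.97, whereas the medians of the respiratory chain and the proteasome go from 0.11 and 0.17 to about 0.

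The last comparison asked whether the contrast of night and day differed between darkness and the light cycle. The same fit on the LD arrays called 38 of 9300 probe sets (0.409%), 21 higher and 17 lower at night, with 1192 (12.8%) at an unadjusted p under 0.05, and its median SE was 0.198 against 0.219 in DD. Of these 38, 35 had the same direction in DD (57.6% of all tested probe sets) and 13 had DD groups without overlap in that direction (3.12% of all tested probe sets were higher and 3.39% lower without overlap). Their median absolute difference was 1.38 in LD, where it chose them, and 0.50 in DD. In the test of the difference itself, with collection time as a block, 0 probe sets were called (0.0%), with 527 (5.67%) at an unadjusted p under 0.05 and a smallest adjusted p of 0.153.

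The 5 genes with the smallest p in that test were mostly genes with a large contrast in LD. per2 differed by 3.16 between conditions (adjusted p = 0.153), and by 3.88 without the ZT14 array of either condition, where it was called (adjusted p = 0.0104 without that of DD and 0.0105 without that of LD). With collection time as a block, leaving out either ZT14 array removes ZT14 from this estimate, so these calls are not separate results. sik1, a kinase gene that responds to cAMP and to light, was at 2768 to 4387 on all DD arrays with no separation (−0.08 ± 0.20), and had 2.31 in LD (difference −2.39, adjusted p = 0.153, and −2.67 without the LD array of ZT2, adjusted p = 0.0186). The gene LOC567909, unnamed beyond its database label, had 119 to 390 in DD (−0.24 ± 0.35) and −2.97 in LD. rorcb differed by 2.58 between conditions (adjusted p = 0.175). dpf2, a chromatin remodelling gene, had opposite directions, −0.57 ± 0.18 in DD with 204 to 283 by day and 138 to 175 by night, and 0.82 in LD (difference −1.40, adjusted p = 0.153) in its brighter probe set. Its dimmer probe set did not show opposite directions, with 0.17 ± 0.41 and overlap in DD and 0.57 ± 0.18 in LD, and had 21.1 at ZT10 against 84.3 to 123 on the other DD arrays.

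**Figure D5:**
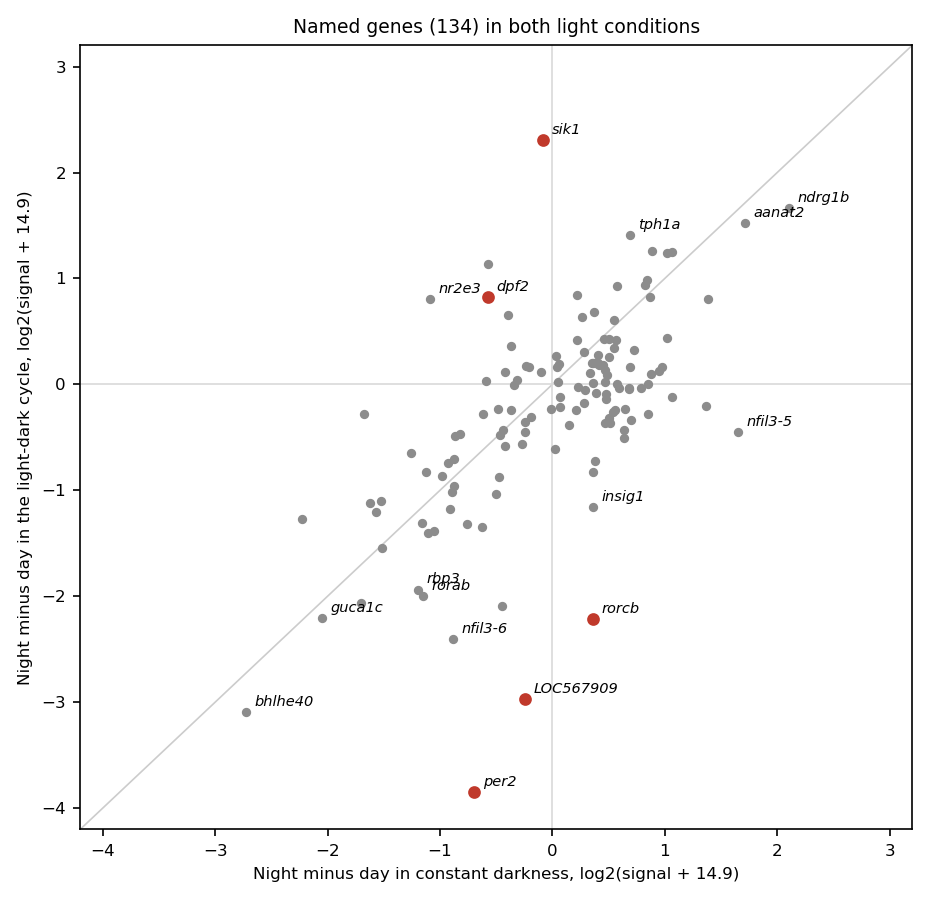
Difference between night and day in LD (y axis) against that in DD (x axis), both on the scale log2(signal + 14.9), for the 134 named genes. Red points are the 5 genes with the smallest p in the test of the difference, and the diagonal marks equal values. bhlhe40, guca1c, aanat2 and ndrg1b lie near the diagonal, and per2, with −0.69 in DD and −3.85 in LD, lies far below it.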

How the data were processed

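RNA of pooled pineal glands was hybridised to 14 Affymetrix zebrafish arrays, 7 in constant darkness. The authors deposited 1 MAS5 signal intensity per probe set and array, on a linear scale. The submitters' processing notes name GCOS and MAS5, without versions. Each array's mean without the top and bottom 2% was 150.0, a scaling seen in the values. The table had 15617 probe sets, of which 115 were controls and 1 had an empty cell. It held no sample columns (0) beyond those of the series. From the platform annotation, 10794 probe sets had 1 gene symbol, 135 several and 4572 none. Probe sets without exactly 1 symbol were tested but not named.

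Signals were analysed as log2(signal + 14.9) without further scaling. Probe sets with a mean over the 14 arrays above 29.2, the 40th percentile, were tested: 9300, for 6117 genes. A gene with several probe sets was represented by the one with the highest mean. Night and day were compared with limma 3.58.1 (lmFit and eBayes with trend, R 4.3.3), the p-values being adjusted by Benjamini and Hochberg over all 9300 with a threshold of 0.05. DD and LD were fitted separately. Their contrasts were compared in 1 fit over all 14 arrays with the 6 collection times as a block. The labels do not say that DD and LD pools of the same time are related. EGFP was compared with a two-sided exact permutation test. limma was tested on simulated data. Tables and figures were made with Python 3.11.15, pandas 2.3.3 and matplotlib 3.10.9.

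The genes named are the 12 with the largest differences in each direction among those without overlap, all tested members of the melatonin and clock lists, up to 4 members of every other list with the largest differences, the 5 with the smallest p in the comparison of DD with LD, and exorh, crx and otx5. Outside this rule, smc4, cnga1a, pde6c, gngt2a, opn1sw2, rpe65a, hspbp1, cirbpb, hspb1, dusp5, dusp6, otx2b and isl1a, and those in the section of other observations, were named after their values were seen. The members and the gene lists were chosen with earlier results of these data known. Alternatives covered the constant, the filter, the scaling, the spread, array weights, the treatment of ZT2b and leaving out each array. No dates or batches were given in the sources used here. The number of arrays limits the precision. For the last step of melatonin synthesis only the methyltransferase-like gene asmtl was analysed here, and whether it acts in that step was not tested. No promoter or probe sequence was used.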

Additional observations from a re-analysis of the deposited data

Results flagged for a closer look

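In 9 of 136 groups of 4 day arrays examined, one array lay far from the others by Dixon's test at the 95% level, where chance gives about 1 in 20 groups. In 7 of the 9 that array was DD ZT10, the one with high poly-A spike signal. Among clock genes these were rorcb, with 473.5 against 25.2 to 32.2 on the other day arrays, nr1d2b, with 420.1 against 1128 to 1270.3, and cry2, with 151.2 against 199 to 203.5. On the LD day arrays ZT10 was also the highest for rorcb (409.8 against 34.4 to 185.6). It was also the lowest there for nr1d2b (196.7 against 992.5 to 1710.7) and cry2 (178.8 against 395.8 to 807.9). Day arrays were taken at different hours and are not replicates of a single hour. The part of the quality of the DD ZT10 array in its values was not tested.

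The other genes at ZT10 were ckmt2a (242.9 against 650.3 to 671.1), the microsomal glutathione transferase gene mgst3a (231.8 against 889.6 to 1032.2) and the complex I genes ndufb10 (214.5 against 726.5 to 826.2) and ndufa1 (119.9 against 297.6 to 334). All 4 were low there. The remaining values were the centromere protein gene cenpe at ZT2b (160.4 against 54.1 to 65.5) and the claudin gene cldn1 at ZT6 (13.6 against 34.2 to 39.4).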

How the results depend on the processing

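The 24 genes named for the largest differences kept their direction in all 453 values over 19 alternatives. They were chosen for groups without overlap, so only median centring and quantile normalisation could have changed a direction. The other alternatives could not, by construction. Of the 134 named genes, 22 took either sign. The count of 0 calls in DD became 22 with array weights (2 higher and 20 lower), and leaving out each array gave 0 to 1, with 0 to 0 higher and 0 to 1 lower: guca1c without ZT10 and bhlhe40 without ZT22. At an unadjusted p under 0.05, 448 became 885 with array weights, 743 with no filter, where more probe sets are tested, and 238 (without ZT18) to 790 (without ZT10) with an array left out. Of probe sets without overlap and at least 1 apart, the 9 higher became 4 with a constant of 50, 5 with a filter at the 60th percentile, 18 with ZT2 and ZT2b averaged and 9 to 22 with an array left out (22 without ZT2, 20 without ZT14 or ZT22, and 16 without ZT10 or ZT2b). The 24 lower became 14 with a constant of 50 and 21 to 46 with an array left out (46 without ZT22). Fewer arrays in a group make overlap less likely by construction. For the difference between DD and LD, leaving out each array gave 0 to 1 calls (per2 without either ZT14 array, sik1 without LD ZT2) and 358 to 689 at an unadjusted p under 0.05, and no filter gave 844. Without the block of collection time, 0 were called and 440 were at an unadjusted p under 0.05 against 527 with it, so the block changed no call. No paired analysis was possible because the night and day pools of DD are different pools, collected at different times, with no label that pairs them. Where no construction is named, the cause was not tested. List medians under each alternative, added after seeing the data, were 0.14 to 0.30 for ribosomal proteins, −1.25 to −0.71 for the repressors, −0.19 to −0.07 for chaperones and 0.28 to 0.67 for leukocyte markers, and of either sign for the respiratory chain (−0.05 to 0.19). Dim genes near the constant, such as ankha, aqp9b and cry5, have differences that depend on it.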

Other observations

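Some of the largest ranges over the DD arrays belonged to genes outside the lists and without a line between night and day. Genes induced by interferon varied from pool to pool: irf7, a transcription factor of that response, had 184 at ZT2, 126 at ZT2b, 307 at ZT6 and 55.1 at ZT10, and 116, 810.0 and 166 at ZT14, ZT18 and ZT22. The ubiquitin-like gene isg15 had 263, 168, 647 and 72.7 by day and 154, 736 and 147 by night. Both were highest at ZT18 and high at ZT6, and on the 7 LD arrays irf7 stayed between 19.0 and 57.0 and isg15 between 34 and 88.2. ifi27.2 was high on other arrays, with 711 at ZT2, 1340.1 at ZT6 and 654 at ZT22.

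The ependymin gene epd, known as a secreted protein of brain membranes, had 598 and 762 at ZT2 and ZT2b and 2948 to 7463 on the other 5 DD arrays. ggctb, an enzyme gene of glutathione turnover, was low on the same 2 arrays, with 77.9 at ZT2 and 51.7 at ZT2b, and had 259 to 655 on the others. In LD the ZT2 and ZT2b arrays were far apart, with 7984 and 302.5 for epd and 1214 and 90.9 for ggctb. The somatostatin gene sst1.1 had 329 at ZT14 and at most 18.5 on the other DD arrays. arg2, an arginase gene, had 608, 732, 248 and 95.5 by day and 104, 123 and 301 by night in DD, and 1030, 1011, 540 and 185 by day and 118, 115 and 608 by night in LD. In both conditions it was high at ZT2 and ZT2b and low from ZT10 to ZT18.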
